A study of Mus musculus with 16 samples.

Results

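Plexins are transmembrane receptors for the semaphorins, secreted or membrane-bound guidance proteins. The genes described here are the mouse plexins (*Plxna1* to *Plxna4*, *Plxnb1* to *Plxnb3*, *Plxnc1* and *Plxnd1*) and *Nrp1*, which encodes the co-receptor neuropilin 1. They were chosen by name as this receptor family, 10 of the 55604 genes listed. RNA had been sequenced from 4 pairs of tumor-associated macrophages (TAMs) positive or negative for Tim-4, a phosphatidylserine receptor that marks resident macrophages. The comparison is of the 2 subsets within pairs, which carry the numbers 793, 784, 783 and 779.

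Both subsets came from the peritoneal wash of C57BL/6 mice bearing ID8, a mouse ovarian cancer cell line that grows in the peritoneum. The study's methods give female mice aged 6 to 8 weeks, wild type where ID8 cells were injected, and a luciferase-carrying ID8 line. TAMs were collected 6 to 7 weeks after inoculation. The labels enter Tim-4 status as a genotype, but Tim-4 is the surface protein by which the cells were separated, and the labels name no altered allele. After most tumor and dead cells had been removed on a density gradient, Tim-4+ cells were taken with antibody and magnetic beads, and Tim-4- TAMs were then enriched from the remaining cells with F4/80 beads. Subset and bead step cannot be told apart. No tumor-free mice are among these libraries, and whether a pair was 1 mouse or a pool is not given in the sources used here. The p-values therefore measure the spread between these 4 pairs.

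The intracellular part of a plexin carries a GTPase-activating domain for Ras and Rap proteins. Through it, a bound semaphorin loosens integrin adhesion and remodels actin. Neuropilin 1 lacks such a domain. It holds class 3 semaphorins on class A plexins and also binds VEGF-A. In myeloid cells plexins are known for roles in migration, and plexin-A1 can work with the TREM2 and DAP12 receptor pair.

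Libraries of the Tim-4+ subset held 53527928 to 57768202 counts on genes, against 55618306 to 69594245 in those of the Tim-4- subset. Levels are given as CPM, counts relative to the library size that edgeR's TMM factors give, and a log2 fold change below 0 is a lower level in Tim-4+ TAMs. All 10 genes passed the filter on low counts (10 counts or more in 4 or more libraries) and were tested. A gene was called where its adjusted p was under 0.05 in edgeR's quasi-likelihood test, fitted with the pair block and adjusted by Benjamini-Hochberg for 16861 genes, and every adjusted p below is from that test unless DESeq2 is named. Macrophage markers were abundant in every library, with 4 of 6 higher in Tim-4+ TAMs and a summed level of 8521 to 9885 CPM against 4156 to 5993 CPM in Tim-4- TAMs. All 5 markers of resident peritoneal macrophages were higher in Tim-4+ TAMs (summed level 2382 to 7052 CPM against 529 to 1127 CPM). *Timd4*, the gene of Tim-4, was at 1161, 1744, 524 and 1166 CPM in Tim-4+ TAMs and at 85.0, 11.1, 22.3 and 1.97 CPM in Tim-4- TAMs of pairs 793, 784, 783 and 779, so that the Tim-4- library of pair 793 held the most *Timd4* among the Tim-4- libraries.

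*Plxnd1*, *Plxna4* and *Plxnb1* were lower in Tim-4+ TAMs, by 3.16-fold, 2.44-fold and 3.87-fold, and none of the 10 genes was called higher. The 3 called lower make up 30.0% of the 10, where 8.43% of all tested genes were called lower, and 0 of 10 were called higher, where 8.97% of all tested genes were. At an unadjusted p under 0.05 in the same edgeR fit, 6 of the 10 were lower and 0 higher. The share of all genes at that threshold was not counted. DESeq2 called 5 of the 10 lower and 0 higher, where it called 2328 lower and 2194 higher of all 16861 genes. The log2 fold change was below 0 for all 10 genes, with a median of -0.43, where the median of all tested genes was -0.0012. All 4 Tim-4+ libraries lay below all 4 Tim-4- libraries for 2 of the 10 genes, *Plxnd1* and *Plxnb1*, as they did for 5.92% of all tested genes. Without pair 793, 784 or 779, and likewise without the pair block, *Plxnd1* was the 1 gene called, and without pair 783 there were 4. Among all genes the 1421 called lower went to 470, 54 and 328 without pair 793, 784 or 779, to 85 without the block and to 1895 without pair 783. The family was uneven, with its most abundant member, *Plxnb2*, at almost the same level in both subsets. The genes were chosen with earlier results of these data known, and *Plxnd1* is a gene that the study itself had singled out.

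**Figure D1:**
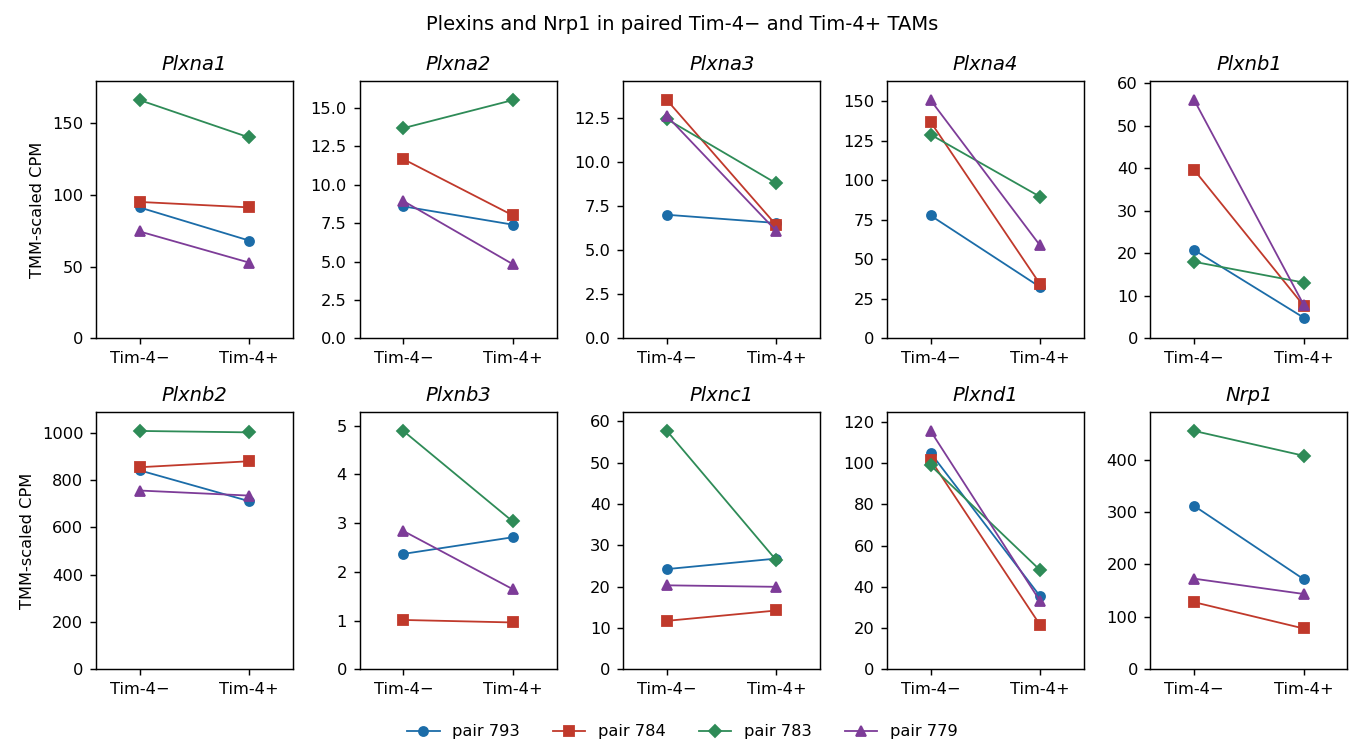
Level of each plexin and of *Nrp1* in Tim-4- and Tim-4+ TAMs, in TMM-scaled CPM (linear axes from 0, each gene on its own scale). Each line joins the 2 libraries of a pair; *Plxnd1* and *Plxnb1* have all Tim-4+ libraries below all Tim-4- libraries, whereas the lines of *Plxnb2* are almost level.

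*Plxnd1* (ENSMUSG00000030123.15, chromosome 6, 115954811 to 115995005, minus strand in GRCm38) encodes plexin-D1, a receptor for semaphorin 3E, which it can bind without a neuropilin. Its level was 35.4, 21.5, 48.1 and 33.1 CPM in Tim-4+ TAMs of pairs 793, 784, 783 and 779 and 105, 102, 99.0 and 116 CPM in the Tim-4- TAMs of the same pairs. The Tim-4- libraries lay close together and the highest Tim-4+ library, that of pair 783, was well below the lowest of them. The means were 34.5 ± 10.9 CPM (SD, n = 4) and 105 ± 7.33 CPM (SD, n = 4), with a log2 fold change of -1.66 (SE 0.19, 95% interval -2.11 to -1.22, edgeR adjusted p = 0.00613). The log2 ratios within the pairs were -1.57, -2.24, -1.04 and -1.80, the smallest difference being that of pair 783. *Plxnd1* was called with any pair left out, with log2 fold changes from -1.88 to -1.47 and a highest adjusted p of 0.0459, and without the pair block (adjusted p of 0.0297).

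*Plxna4* (ENSMUSG00000029765.12, chromosome 6, 32144268 to 32588192, minus strand) encodes plexin-A4, a receptor for semaphorin 3A together with neuropilin 1 and for class 6 semaphorins without it. Its level was 32.5, 34.4, 89.7 and 58.8 CPM in Tim-4+ TAMs and 77.8, 137, 129 and 151 CPM in Tim-4- TAMs, in the same order of pairs. Tim-4+ TAMs were lower in every pair, but the groups overlapped, since the Tim-4- library of pair 793 was below the Tim-4+ library of pair 783. Its log2 fold change was -1.28 (SE 0.22, 95% interval -1.82 to -0.75, edgeR adjusted p = 0.0149). The call was lost without pair 793, 784 or 779, with adjusted p values of 0.0641, 0.0634 and 0.0716 and log2 fold changes of -1.29, -1.05 and -1.26, and without the pair block (adjusted p of 0.0887). An antisense gene, Plxna4os3, shares 110 exon bases with *Plxna4*, and held 3 counts over all libraries.

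*Plxnb1* (ENSMUSG00000053646.13, chromosome 9, 109095389 to 109119917, plus strand) encodes plexin-B1, the receptor for semaphorin 4D, which can pair with the kinases MET and ERBB2. Its level was 4.88, 7.70, 13.1 and 7.91 CPM in Tim-4+ TAMs and 20.8, 39.6, 18.0 and 56.1 CPM in Tim-4- TAMs. The groups did not overlap, and the Tim-4- libraries of pairs 779 and 784 stood above the other Tim-4- libraries. For this gene the fit gave a log2 fold change of -1.95 (SE 0.39, 95% interval -2.89 to -1.02, edgeR adjusted p = 0.0223), with log2 ratios of -2.08, -2.36, -0.46 and -2.82 in the 4 pairs. Pair 783 differed least. Without pair 793, 784 or 779 the adjusted p was 0.0865, 0.104 or 0.0823, with log2 fold changes of -1.90, -1.80 and -1.65, and without the pair block it was 0.0535. An antisense gene, Gm7628, shares 257 exon bases with *Plxnb1* and held 81 counts over all libraries.

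**Figure D2:**
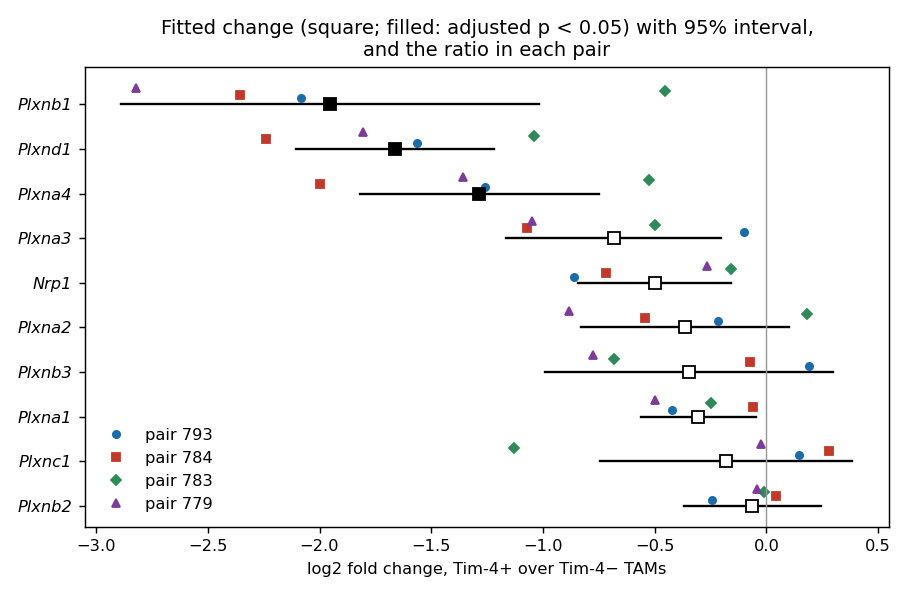
Log2 fold change of each gene, Tim-4+ over Tim-4- TAMs (squares, filled where the adjusted p was under 0.05, with 95% intervals), and the log2 ratio in each of the 4 pairs (colored symbols). *Plxnb1*, *Plxnd1* and *Plxna4* are the filled squares, and pair 783 has the ratio nearest to 0 in each of them.

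The sequences before the start sites of *Plxnd1*, the gene of the 10 with the smallest adjusted p, and of *Plxnb2*, the abundant member that was not called, are shown for comparison. They are the 250 bases before the RefSeq start in GRCm38.p6, written 5′ to 3′ on the strand of the gene, and 8 of the 10 genes were matched in that table. *Plxna1* and *Plxna4* were not matched. Capitals mark the GC box, GGGCGG or CCGCCC on the other strand, and a KLF-type box, GGGCGTG or CACGCCC. Neither motif contains the other. The motifs were chosen after the sequences had been seen.
Plxnd1 (chr6:115995006-115995255, minus strand): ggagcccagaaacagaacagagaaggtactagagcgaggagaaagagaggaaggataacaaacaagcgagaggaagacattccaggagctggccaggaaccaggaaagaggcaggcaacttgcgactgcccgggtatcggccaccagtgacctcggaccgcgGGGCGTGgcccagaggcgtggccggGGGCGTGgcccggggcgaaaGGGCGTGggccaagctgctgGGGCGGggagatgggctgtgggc
Plxnb2 (chr15:89180789-89181038, minus strand, the upstream one of its starts in the table): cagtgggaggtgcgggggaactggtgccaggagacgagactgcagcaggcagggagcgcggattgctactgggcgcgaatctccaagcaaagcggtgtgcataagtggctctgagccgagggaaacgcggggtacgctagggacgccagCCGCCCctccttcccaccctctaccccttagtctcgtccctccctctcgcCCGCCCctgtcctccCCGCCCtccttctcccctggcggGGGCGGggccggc

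The *Plxnd1* sequence held 3 KLF-type boxes and 1 GC box. Of 32851 RefSeq promoters of the same length, 7.55% held at least 1 KLF-type box and 0.213% held 3 or more. The *Plxnb2* sequence, and that of *Plxnb1*, which is not printed because it reaches into the GENCODE transcript, held 0 KLF-type boxes and 4 GC boxes each, a number that 4.09% of all promoters reached, and 32.7% of all promoters held at least 1 GC box. The GC content was 64.8% for *Plxnd1*, 75.2% for *Plxnb1* and 69.2% for *Plxnb2*, against a median of 52.4% over all promoters. None of the 3 held an AP-1 site (TGACTCA or TGAGTCA) or a TATA box (TATAAA or TTTATA), which 4.46% and 12.4% of all promoters held. An ETS-type core with purines (GAGGAA or TTCCTC), which 23.3% of all promoters held, occurred 2 times in the *Plxnd1* sequence and 0 times in those of *Plxnb1* and *Plxnb2*, and it is not in capitals. The sequence of *Plxnc1*, which was not called, held 1 KLF-type box, 4 GC boxes and 2 ETS-type cores. Those of *Nrp1* and *Plxnb3*, also not called, held 1 ETS-type core each. These are matches of letters, and no binding was measured.

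The other class A plexins were not called. *Plxna1* (ENSMUSG00000030084.11, chromosome 6, 89316314 to 89362620, minus strand), whose product joins neuropilin 1 in the semaphorin 3A receptor, was at 68.2, 91.3, 140.0 and 52.8 CPM in Tim-4+ TAMs and 91.2, 95.1, 166 and 74.5 CPM in Tim-4- TAMs. Tim-4+ TAMs had the lower value in each of the 4 pairs, while the pairs differed more from each other than the subsets did. Its log2 fold change was -0.31 (95% interval -0.56 to -0.05, edgeR adjusted p = 0.0965). An antisense gene, Gm26811, shares 970 exon bases with it and held 600 counts over all libraries. The deposited lanes keep a class of ambiguous reads apart from the counts on genes. Since the counter's use of strand is not stated, it is not known whether reads on bases shared with such partners were counted or set aside.

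*Plxna2* (ENSMUSG00000026640.12, chromosome 1, 194618218 to 194816869, plus strand), another class A receptor for class 3 and class 6 semaphorins, was scarce at 7.40, 8.0, 15.5 and 4.83 CPM in Tim-4+ TAMs and 8.59, 11.7, 13.7 and 8.94 CPM in Tim-4- TAMs. Pair 783 went the other way from the other 3 pairs, and the log2 fold change was -0.36 (95% interval -0.83 to 0.10, edgeR adjusted p = 0.250). *Plxna3* (ENSMUSG00000031398.13, chromosome X, 74329066 to 74344689, plus strand), a receptor for semaphorin 3F with neuropilin 2, was at 6.54, 6.40, 8.77 and 6.08 CPM and 7.0, 13.5, 12.4 and 12.6 CPM. The Tim-4- library of pair 793 lay within the range of the Tim-4+ libraries, and the other 3 Tim-4- libraries lay above all of them. Its log2 fold change was -0.68 (95% interval -1.16 to -0.20, edgeR adjusted p = 0.0583), and DESeq2 called it with an adjusted p of 0.0152.

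Among the class B plexins, *Plxnb2* (ENSMUSG00000036606.17, chromosome 15, 89155549 to 89180788, minus strand), a receptor for class 4 semaphorins, was the most abundant of the 10 genes. Its level was 711, 880.5, 1003 and 735 CPM in Tim-4+ TAMs and 842, 855, 1009 and 756 CPM in Tim-4- TAMs. For *Plxnb2* the log2 fold change of -0.06 had a 95% interval of -0.37 to 0.24 (edgeR adjusted p = 0.782). *Plxnb3* (ENSMUSG00000031385.14, chromosome X, 73757090 to 73772514, plus strand), a receptor for semaphorin 5A, was the least abundant, at 2.71, 0.960, 3.03 and 1.64 CPM and 2.37, 1.01, 4.89 and 2.84 CPM. Its 95% interval, -0.99 to 0.30 around -0.35, was too wide to place its level in either subset above the other (edgeR adjusted p = 0.429).

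*Plxnc1* (ENSMUSG00000074785.5, chromosome 10, 94790866 to 94944835, minus strand) encodes plexin-C1, the receptor for semaphorin 7A. It was at 26.8, 14.2, 26.3 and 19.9 CPM in Tim-4+ TAMs and 24.2, 11.7, 57.6 and 20.3 CPM in Tim-4- TAMs. The Tim-4- library of pair 783 was far above every other library, and in 2 of the 4 pairs the Tim-4+ library had the higher value. For *Plxnc1* the fitted log2 fold change was -0.18 (95% interval -0.75 to 0.38, edgeR adjusted p = 0.645), and without pair 783 it was 0.13.

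*Nrp1* (ENSMUSG00000025810.9, chromosome 8, 128358604 to 128503363, plus strand) was at 172, 77.7, 407 and 144 CPM in Tim-4+ TAMs and 311, 128, 455 and 173 CPM in Tim-4- TAMs. The pairs differed more from each other than the subsets did, with pair 783 the highest and pair 784 the lowest in both subsets, yet Tim-4+ TAMs had the lower value in each of the 4 pairs. The log2 fold change was -0.50 (SE 0.15, 95% interval -0.84 to -0.16, edgeR adjusted p = 0.0545), just above the threshold of 0.05, so that it was not called. DESeq2 gave an adjusted p of 0.0186. Without pair 783 the log2 fold change was -0.62 and the adjusted p 0.0218, and without the pair block they were -0.41 and 0.725.

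Levels of different genes were compared as TMM-scaled CPM per kb of exon. In Tim-4+ TAMs the order ran from *Plxnb2* at 108 ± 17.6 CPM per kb (SD, n = 4) through *Nrp1* at 20.4, *Plxna1* at 9.73, *Plxnd1* at 4.73, *Plxna4* at 3.82 and *Plxnc1* at 2.61 to *Plxna3* and *Plxnb1* at 0.88 each, *Plxna2* at 0.520 and *Plxnb3* at 0.321. In this subset the ranges of neighbors overlapped except between *Plxnb2* and *Nrp1* and between *Plxnc1* and *Plxna3*. In Tim-4- TAMs *Plxnb2* was at 112 ± 13.6 CPM per kb (SD, n = 4), followed by *Nrp1* at 27.2, *Plxnd1* at 14.4, *Plxna1* at 11.8, *Plxna4* at 8.77, *Plxnb1* at 3.50, *Plxnc1* at 3.41, *Plxna3* at 1.44, *Plxna2* at 0.624 and *Plxnb3* at 0.428. Here neighbors overlapped except between *Plxnb2* and *Nrp1* and between *Plxna3* and *Plxna2*. *Plxnb2* alone made up 78.6% to 85.5% of the summed plexin level per kb in the Tim-4+ libraries and 68.2% to 74.8% in the Tim-4- libraries.

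**Figure D3:**
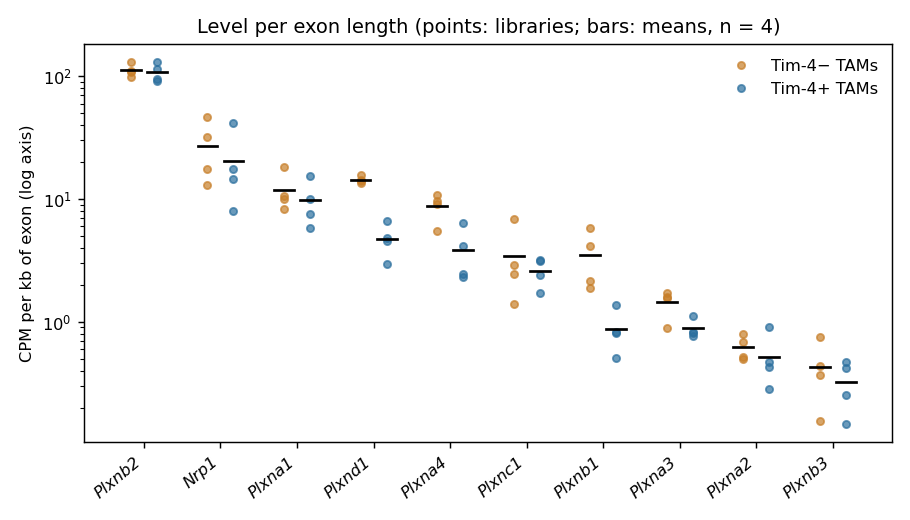
Level of each gene in TMM-scaled CPM per kb of exon (log axis) in the 4 Tim-4- and the 4 Tim-4+ libraries (points), with the mean of each subset (bars). *Plxnb2* stands above all others in both subsets, at means of 108 and 112 CPM per kb.

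Markers of mesothelial cells, which line the peritoneum, differed between the same libraries. All 6 of 6 listed mesothelial markers were lower in Tim-4+ TAMs, and their summed level was 89.7, 174, 325 and 183 CPM in Tim-4+ TAMs and 366, 1138, 691 and 1665 CPM in Tim-4- TAMs of pairs 793, 784, 783 and 779. Some of these markers, *Wt1* and the keratins *Krt8* and *Krt19* among them, can also be expressed by ovarian tumor cells. The highest sums, in the Tim-4- libraries of pairs 779 and 784, were in the libraries with the most *Plxnb1* and *Plxna4*, and these were the top libraries for 742 (52.2%) of the 1421 genes called lower, and for 3 of the 6 mesothelial markers taken singly (*Upk3b*, *Krt19* and *Wt1*). The *Plxnd1* level was between 99.0 and 116 CPM across the Tim-4- libraries, with the highest value in pair 779. Among the Tim-4+ libraries the marker sum, *Plxnb1*, *Plxna4* and *Plxnd1* were all highest in pair 783 (325, 13.1, 89.7 and 48.1 CPM).

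Pairs 793 and 783 were picked, with the data in view, for the lower marker sums of their Tim-4- libraries. In each of them the marker sum was still lower in Tim-4+ TAMs (log2 ratios of -2.03 and -1.09). The choice of these pairs therefore does not remove the marker difference. In these pairs alone, *Plxnd1* had a log2 fold change of -1.31 (edgeR adjusted p = 0.0125) and was the 1 gene of the 10 called. In the same pairs *Plxna4* had -0.90 (edgeR adjusted p = 0.107) and *Plxnb1* -1.27 (edgeR adjusted p = 0.300), while the genes called lower among all genes went from 1421 to 211 with the fewer libraries in the fit. The pairs left out held the Tim-4- libraries with the most *Plxnb1* and *Plxna4*, so these values do not set the 3 genes apart from each other. The part of mesothelial or tumor RNA in these differences was not tested. In bulk RNA of this kind, fewer cells of a type and less RNA per cell cannot be told apart.

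**Figure D4:**
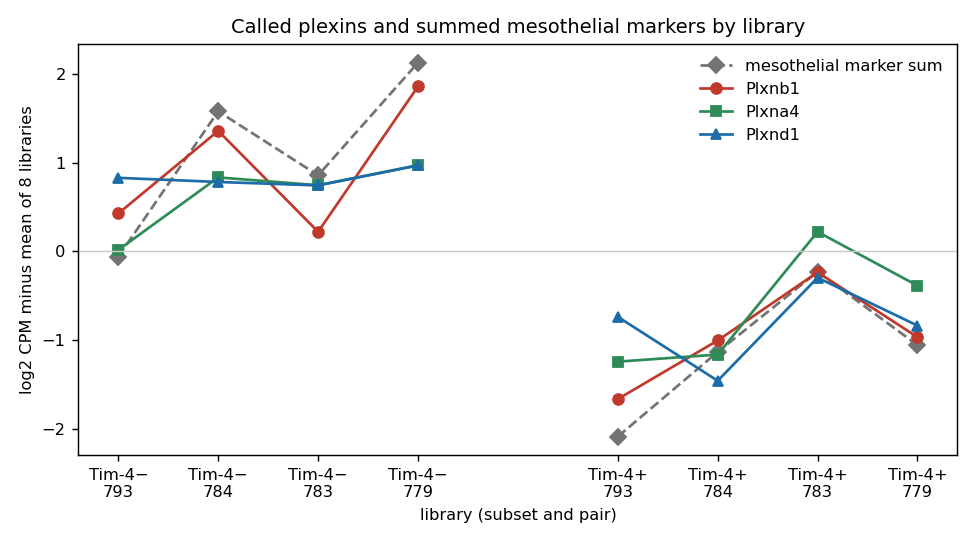
Log2 CPM of *Plxnb1*, *Plxna4*, *Plxnd1* and the summed mesothelial markers in each library, each minus its own mean over the 8 libraries. Among the Tim-4- libraries the marker sum, *Plxnb1* and *Plxna4* are highest in pairs 779 and 784, and *Plxnd1* lies between 99.0 and 116 CPM, highest in pair 779. Among the Tim-4+ libraries the marker sum and each of these plexins are highest in pair 783.

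Markers of other cells were as follows. Of the 4 monocyte markers, 3 were tested and 2, *Ccr2* and *Ly6c2*, were lower in Tim-4+ TAMs, with summed levels of 51.2 to 96.7 CPM in Tim-4+ TAMs and 152 to 204 CPM in Tim-4- TAMs. Endothelial cells are a known site of *Plxnd1* and *Nrp1*, and the summed level of the 6 endothelial markers was 2.27 to 6.47 CPM in Tim-4+ TAMs and 2.49 to 5.90 CPM in Tim-4- TAMs. Of these, *Tek* and *Emcn* were at most at 0.274 CPM in any library, *Cdh5* was at 0.687 to 1.74 and 1.03 to 3.30 CPM, and *Egfl7* was higher in Tim-4+ TAMs. Of the markers tested, called lower were 1 of 5 for fibroblasts (*Dcn*) and 2 of 6 for B cells (*Cd79b*, *Ighm*). So were 1 of 5 for dendritic cells (*Zbtb46*) and 1 of 4 for granulocytes and mast cells (*Mcpt4*). The other 4 dendritic cell markers tested, *Flt3*, *Xcr1*, *Clec9a* and *Ccr7*, were not called and had log2 fold changes of 0.59, 0.68, 0.59 and 0.54. Of 6 T and NK cell markers only 2 had enough counts to be tested, *Lck* and *Trac*, with log2 fold changes of -1.67 and -1.63, not called. Of 6 neuron and glia markers 3 were tested and 0 called, and *Gap43* and *Sox10* were at 0 counts in all libraries. The summed fibroblast level was 19.5 to 90.3 CPM in Tim-4+ TAMs and 49.9 to 173 CPM in Tim-4- TAMs. The summed B cell level was 17.6 to 48.0 CPM and 37.6 to 71.0 CPM. The other sums were at most 76.3 CPM in any library, and the part of these cells in the differences was not tested.

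Of the semaphorins, the ligands of the plexins, 20 were listed and 16 tested, and 8 were called lower in Tim-4+ TAMs and 0 higher, where 8.43% and 8.97% of all tested genes were. The median log2 fold change was -0.98. At an unadjusted p under 0.05 in edgeR, 11 were lower and 1, *Sema6b*, higher, a threshold at which the share of all genes was not counted. DESeq2 called 10 semaphorins lower and 1 higher, where it called 2328 lower and 2194 higher of all 16861 genes. The count of 8 fell to 3 without pair 793 or 779 and to 0 without pair 784 or without the pair block, and it was 11 without pair 783, under settings in which the calls over all genes also went from 1421 lower to 470, 328, 54, 85 and 1895 (without pair 793, 779 or 784, without the block and without pair 783). The semaphorin counts stand beside the mesothelial sums given above, and 5 of the 8 (*Sema3b*, *Sema3c*, *Sema3f*, *Sema4g* and *Sema5a*) had their highest levels in the Tim-4- libraries of pairs 779 and 784, where 52.2% of all genes called lower and 3 of the 6 mesothelial markers did. The part of mesothelial or tumor RNA in them was not tested.

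*Sema3f*, a secreted ligand of neuropilin 2 and plexin-A3, was at 3.97, 6.34, 8.77 and 7.10 CPM in Tim-4+ TAMs and 11.2, 35.5, 18.4 and 58.2 CPM in Tim-4- TAMs (4.06-fold lower, edgeR adjusted p = 0.0152). *Sema3b*, *Sema3c*, *Sema4g* and *Sema5a* were 4.22-fold, 3.34-fold, 3.74-fold and 2.99-fold lower (edgeR adjusted p values of 0.0139, 0.0359, 0.0338 and 0.0429). *Sema4d*, the ligand of plexin-B1, was at 8.13, 33.9, 27.5 and 9.49 CPM and 18.5, 60.0, 60.4 and 15.3 CPM (1.94-fold lower, edgeR adjusted p = 0.00722). Its Tim-4- levels were highest in pairs 783 and 784. *Sema4a*, a membrane-bound semaphorin of immune cells and the most abundant of the list per exon length at a mean of 20.7 CPM per kb over the 8 libraries, was 1.51-fold lower (edgeR adjusted p = 0.0205), and *Sema4c* was 2.01-fold lower (edgeR adjusted p = 0.0108).

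A ligand of plexin-D1, *Sema3e*, was scarce, at 0.126, 0.120, 0.859 and 0.104 CPM in Tim-4+ TAMs and 0.285, 0.930, 1.75 and 3.42 CPM in Tim-4- TAMs. Each pair had the smaller value in its Tim-4+ library, but the threshold was not passed (log2 fold change -2.43, SE 0.72, edgeR adjusted p = 0.0568). *Sema3a*, the classical ligand of neuropilin 1, was at 0.105 to 0.416 CPM and 0.205 to 0.445 CPM. *Sema7a*, the ligand of plexin-C1, was at 0.946 to 5.17 CPM and 2.10 to 3.93 CPM and had a log2 fold change of -0.13 (edgeR adjusted p = 0.891). These 3 genes were chosen after their values were seen.

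Of 6 other ligands of neuropilin 1, 3 were tested, and 2 were called higher in Tim-4+ TAMs and 0 lower. Of all tested genes, 8.97% were called higher and 8.43% lower. *Vegfa*, an angiogenic growth factor, was at 391, 212, 425 and 311 CPM in Tim-4+ TAMs and 268, 127, 241 and 106 CPM in Tim-4- TAMs, 1.88-fold higher (log2 fold change 0.91, SE 0.18, edgeR adjusted p = 0.0157). It was higher in each of the 4 pairs. *Tgfb1*, which encodes the cytokine TGF-β1, was 1.48-fold higher, also in each pair (edgeR adjusted p = 0.0222). *Vegfb* had a log2 fold change of 0.09 (95% interval -0.27 to 0.45), and *Vegfc*, *Vegfd* and *Pgf* had too few counts to be tested.

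Of 18 co-receptors and other semaphorin receptors 14 were tested, with 5 (35.7%) called lower and 3 (21.4%) higher in Tim-4+ TAMs, where 8.43% and 8.97% of all tested genes were, and a median log2 fold change of -0.89. *Met*, the kinase that pairs with plexin-B1, was 4.97-fold lower (1.22 to 3.77 CPM against 4.2 to 18.0 CPM, edgeR adjusted p = 0.0114), and *Erbb2* was 2.57-fold lower (edgeR adjusted p = 0.0368). The VEGF receptor genes *Flt1* and *Flt4* were 3.0-fold and 3.30-fold lower (edgeR adjusted p values of 0.0230 and 0.00394). These 4 of the 5 called lower had their highest levels in the Tim-4- libraries of pairs 779 and 784, as did 52.2% of all genes called lower. *Cd72*, a receptor for semaphorin 4D on immune cells, was at 7.08, 47.5, 37.2 and 17.2 CPM in Tim-4+ TAMs and 26.3, 119, 76.9 and 46.2 CPM in Tim-4- TAMs, 2.67-fold lower (edgeR adjusted p = 0.00394).

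Higher in Tim-4+ TAMs were *Plxdc2*, which encodes a plexin domain-containing membrane protein and no plexin, *Itgb1*, the integrin β1 chain of a semaphorin 7A receptor, and *Tyrobp*, which encodes DAP12. *Plxdc2* was at 675, 636, 272 and 785 CPM in Tim-4+ TAMs and 247, 146, 86.8 and 121 CPM in Tim-4- TAMs, 3.95-fold higher (log2 fold change 1.98, SE 0.22, edgeR adjusted p = 0.00533). For each of these genes the lowest Tim-4+ library lay above the highest Tim-4- library, as it did for 6.84% of all tested genes. *Itgb1* and *Tyrobp* were 1.83-fold and 1.79-fold higher (edgeR adjusted p values of 0.0137 and 0.0238), and *Tyrobp* was the most abundant of the list per exon length. Its partner *Trem2*, named after its values were seen, was at 0.0420 to 0.110 CPM in Tim-4+ TAMs and 0.0382 to 0.225 CPM in Tim-4- TAMs, where 3 counts in a library correspond to 0.0431 to 0.0560 CPM. *Nrp2*, neuropilin 2, also named afterwards, was at 55.1, 132, 189 and 40.2 CPM and 76.1, 313, 163 and 156 CPM, with a log2 fold change of -0.86 (SE 0.34, edgeR adjusted p = 0.137).

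Most effectors that act below plexins were not called. Of 37 listed genes 35 were tested, with 5 (14.3%) lower, 5 (14.3%) higher and 25 not called, where 8.43% and 8.97% of all tested genes were lower and higher, and with a median log2 fold change of 0.11. The called-lower genes were *Dpysl5*, a collapsin response mediator (6.78-fold), *Farp1*, a protein with a FERM domain (5.15-fold), *Mical2* and *Mical3*, enzymes of the family that oxidizes actin (4.52-fold and 2.01-fold), and *Rnd1*, a small GTPase that binds plexins (3.84-fold). Their adjusted p values were 0.00638, 0.00875, 0.0141, 0.0325 and 0.00855. All 5 had their highest levels in the Tim-4- libraries of pairs 779 and 784, where 52.2% of all genes called lower and 3 of the 6 mesothelial markers did, and the part of mesothelial or tumor RNA in them was not tested.

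The called-higher effectors were of smaller size. *Rac2*, the Rac GTPase of blood cells, was at 581, 849, 430.1 and 528 CPM in Tim-4+ TAMs and 384, 370.0, 266 and 248 CPM in Tim-4- TAMs, 1.86-fold higher (edgeR adjusted p = 0.0107). *Dpysl3*, *Sh3bp1*, *Rras* and *Gsk3b* were 1.61-fold, 1.5-fold, 1.46-fold and 1.32-fold higher (edgeR adjusted p values of 0.0161, 0.0275, 0.0207 and 0.0410). R-Ras is a substrate of the plexin GTPase-activating domain. *Cfl1*, the actin-severing protein cofilin 1 and the most abundant of the list per exon length, had a log2 fold change of 0.25 (95% interval -0.07 to 0.57, edgeR adjusted p = 0.255). Without pair 784 the effector counts were 0 lower and 0 higher, without pair 793 they were 3 and 3, without pair 779 they were 3 and 1, and without pair 783 they were 7 and 6. Without the pair block they were 1 and 0. Over all genes, the 1421 lower and 1512 higher became 54 and 78 without pair 784, 470 and 719 without pair 793, 328 and 445 without pair 779, 1895 and 1573 without pair 783, and 85 and 147 without the block. Under scaling by total counts, where the median of all genes was -0.36, they were 13 and 1.

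**Figure D5:**
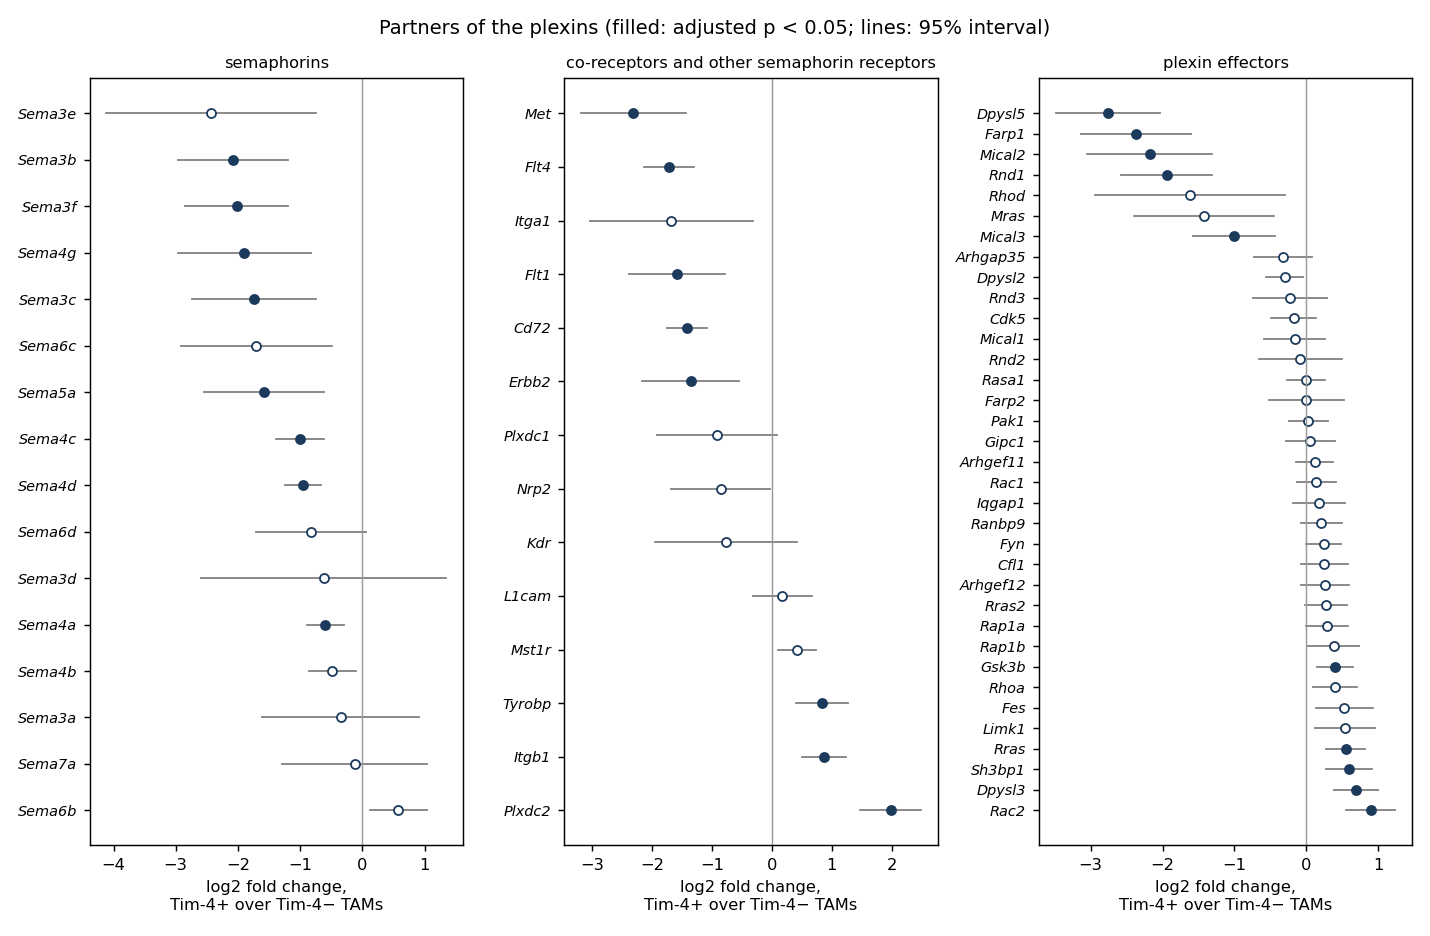
Log2 fold change, Tim-4+ over Tim-4- TAMs, of the tested semaphorins, co-receptors and plexin effectors (points, filled where the adjusted p was under 0.05, with 95% intervals). The semaphorins lie mostly below 0 (median -0.98), whereas the effectors spread around 0 (median 0.11).

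The genes whose log2 CPM followed a plexin most closely over the 8 libraries are given as a description, since the libraries share pairs and subsets and 13014 genes, those averaging 1 CPM or more, were searched. For *Plxnd1* they were *Clec4a2*, a C-type lectin receptor of myeloid cells, *Cnn2*, an actin-binding calponin, and *Fam129a* (Pearson's r of 0.990, 0.987 and 0.987). For *Plxnb1* they were *Cavin2*, a caveolar coat protein, 2010300C02Rik and *Ptk7*, a kinase-dead receptor (r of 0.997, 0.996 and 0.994). For *Plxna4* they were *Chrnb1*, *Zfp101* and *Ephb6* (r of 0.988, 0.987 and 0.984), and for *Nrp1* they were *Emp1*, *Rnase6* and *Rcan3* (r of 0.983, 0.981 and 0.981). The 9 genes alike to the 3 called plexins were themselves called lower in Tim-4+ TAMs, and the 3 alike to *Nrp1* were not called. The genes were picked by likeness over the same 8 libraries, with the subset difference included. Their calls therefore follow largely from the picking and are no separate result. No gene stood in more than 1 of these lists.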

How the data were processed

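RNA was isolated from 8 TAM preparations, depleted of ribosomal RNA and made into stranded libraries, each sequenced in 2 lanes. What the authors deposited for each lane was the raw count of reads on every gene, in whole numbers and not normalized. Per the labels' processing notes, FastQC 0.11.3, TopHat2 2.0.13, Cufflinks and Cuffdiff 2.2.1 were used, with GRCm38 and mm10 listed, while the methods text names a human build. The identifiers are mouse Ensembl, and the program that counted reads and its strand setting are not given in the sources used here. Reads aligning to several places were left out of the counts on genes by the authors.

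The 2 lanes were summed. Lane 1 of the Tim-4- library of pair 793 was listed by symbol and was joined by row order, at which 96.9% of comparable symbols and all 10 genes of interest matched. Coordinates and exon lengths are from GENCODE M21 (98.6% of identifiers matched), symbols from a separate list of gene names (98.4% matched) and promoters from RefSeq. Genes reaching 10 counts in 4 or more libraries were tested with edgeR 4.0.16 in R 4.3.3 (robust quasi-likelihood test, TMM factors of 0.833 to 0.947 in Tim-4+ and 1.05 to 1.18 in Tim-4- TAMs, pair block, Benjamini-Hochberg adjustment, threshold 0.05). Standard errors are the log2 fold change divided by the square root of F. The pairing comes from the study's paired design and the labels' numbers. With subset means removed, the r across genes between the libraries of pairs 793, 784, 783 and 779 was 0.471, 0.498, 0.408 and 0.277, and each library correlated best with its own number. The method was tested on simulated data.

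Alternatives were other scalings, DESeq2 1.42.0, other filters, single lanes, no block, each pair left out, a 2-fold requirement and, chosen after the data were seen, pairs 793 and 783 only. The genes and lists were chosen with earlier results of these data known. Named are all 10 genes, every called gene of each pathway list and its most abundant gene per exon length, and the 3 genes most alike in pattern to *Nrp1* and each called plexin. Markers of macrophages, resident peritoneal macrophages, monocytes, endothelial, mesothelial and fibroblast cells, T and NK, B and dendritic cells, granulocytes and mast cells, and neurons and glia were listed as well. Counting floors (3 counts) cover counting error only.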

Additional observations from a re-analysis of the deposited data

Results flagged for a closer look

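*Plxna3* stood out in both subsets by a sample far from the others of its group. In Tim-4+ TAMs the library of pair 783 was at 8.77 CPM, where the other 3 were between 6.08 and 6.54 CPM, and its gap to the nearest, 6.54 CPM, was 0.830 of the group's range. In Tim-4- TAMs the library of pair 793 was at 7.0 CPM, where the other 3 were between 12.4 and 13.5 CPM, and its gap was 0.834 of the range. Both gaps were narrowly above Dixon's 95% critical value for 4 samples. Of 20 groups examined, 10 genes in 2 subsets, 2 were picked out, and chance picks out about 1 in 20.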

How the results depend on the processing

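*Plxnd1* was called lower under all 13 alternative fits, with log2 fold changes from -2.02 to -1.47 and a highest adjusted p of 0.0459. Its log2 fold change in pairs 793 and 783 alone was -1.31, but these pairs were picked with the data in view, and this value is no further check. No member was called higher under any setting. Counts of called members, semaphorins and effectors moved as follows, from 3 lower members, 8 lower and 0 higher semaphorins, and 5 lower and 5 higher effectors. Without the replicate block they were 1 lower member, 0 lower semaphorins, and 1 lower and 0 higher effectors (85 lower and 147 higher among all genes). Without it *Plxna4* and *Plxnb1* had adjusted p values of 0.0887 and 0.0535. With total counts per library there were 7 lower members, and 13 lower and 1 higher effectors. Under that scaling the all-gene median was -0.36 on the log2 scale, and higher genes made up 13.9% of all calls in place of 51.6%, so that *Plxnb2*, at -0.42 (adjusted p of 0.0233), and *Plxna1*, at -0.66 (0.0111), were called lower there. DESeq2 gave 5 lower members, 1 higher semaphorin and 9 higher effectors (2328 lower and 2194 higher among all genes). Without a count filter there were 3 lower effectors, and the adjusted p of *Plxnb1* was 0.162. With a 2-fold requirement 0 effectors were higher. In pairs 793 and 783 alone there were 1 lower member, 3 lower semaphorins, and 2 lower and 1 higher effectors.

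With each pair left out in turn, the counts ranged from 1 to 4 for lower members, 0 to 11 for lower and 0 to 1 for higher semaphorins, and 0 to 7 for lower and 0 to 6 for higher effectors. The log2 fold changes of *Plxnb2* (-0.10 to 0.0015) and *Plxnc1* (-0.34 to 0.13) changed sign, without pair 793 and without pair 783, and were never called with a pair left out. *Plxna3* was also called with total counts (adjusted p of 0.0206), no filter (0.0315) and lane 2 only (0.0376), and *Nrp1* with total counts (0.0105) and no filter (0.0187). Single lanes, the other size factors, the stricter filter and leaving out the symbol-listed lane kept every other count within 1.5 times. The causes of these changes were not tested. The biological coefficient of variation was 0.261, which with 4 pairs limits the size of difference that can be called.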
